A study of Mus musculus with 3 samples.

Results

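The 10 keratin genes described here are Krt4, Krt5, Krt7, Krt8, Krt18, Krt79 and Krt80 on mouse chromosome 15 and Krt14, Krt15 and Krt19 on chromosome 11. They were chosen by name, and ERα binding near them was taken as every ERα ChIP-seq peak whose midpoint lay within 100 kb of an annotated transcription start site (TSS) of any of them. By this rule 19 of 9607 peaks in replicate 1 and 18 of 6819 peaks in replicate 2 lay near the keratins. Of 6250 regions covered by a peak in both replicates, 18 did, 12 of them around the chromosome 15 genes and 6 around the chromosome 11 genes. Each peak and each region was counted once, although 15 of the 18 regions lay within 100 kb of more than 1 of the 10 genes. A region is an overlapping pair of peaks, and 1 peak of replicate 1 is part of 2 of the 18 regions.

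All glands came from wild-type BALB/c mice (BALB/cJ in the study's methods) whose ovaries were removed when they were 6 weeks old and which, after 10 days of rest, were injected subcutaneously with 100 ng of 17β-estradiol, with the tissue taken 2 h later. The #4 mammary glands, with the lymph node removed, were pooled from 6 mice for each of the 2 ERα ChIP replicates, and 1 input DNA library was made. The glands were whole tissue, so a peak cannot be assigned to luminal, basal or stromal cells. No vehicle ChIP library was analysed here, so no region can be called dependent on estradiol, and with 1 condition no test between groups was possible. The counts, distances and scores below are therefore descriptions of these libraries. The peak lists hold no reads or expression values, so the depth is unknown from them and the tissue label could not be checked against marker genes.

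Keratins form the intermediate filaments of epithelial cells as pairs of a type I and a type II protein, and their genes lie in 2 clusters, type I on chromosome 11 and type II on chromosome 15. Krt18 is the exception, a type I gene that sits beside its type II partner Krt8 at the edge of the chromosome 15 cluster. In the mammary gland Krt8 and Krt18, with Krt7 and Krt19, mark luminal cells, and Krt5 and Krt14 mark basal (myoepithelial) cells. Krt4 is best known from the stratified lining of the mouth and oesophagus, where it pairs with Krt13. Krt15 is known from basal cells of stratified epithelia, and Krt79 from the hair follicle. ERα is a ligand-activated nuclear receptor. It binds DNA at the estrogen response element (ERE), a palindrome of GGTCA and TGACC separated by any 3 bases, or is held on DNA by other factors such as AP1.

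The sequences of 4 regions carry most of what follows, and they are shown as the central 300 bases of each shared region on the plus strand of mm9 (NCBIM37). A region is named by its nearest gene and the signed distance in bp of its midpoint from the nearest TSS of that gene, where a minus sign is upstream. Capitals mark an ERE with at most 1 mismatch, either ERE arm alone (GGTCA or TGACC), and any match to the AP1, SF1, PAX2 or FOXA1 consensus. The first 2 lie upstream of Krt4, the third is the highest-scoring region of the set, and the fourth is the region closest to the Krt8 and Krt18 pair.
Krt4 -2742, chr15:101757758-101758057: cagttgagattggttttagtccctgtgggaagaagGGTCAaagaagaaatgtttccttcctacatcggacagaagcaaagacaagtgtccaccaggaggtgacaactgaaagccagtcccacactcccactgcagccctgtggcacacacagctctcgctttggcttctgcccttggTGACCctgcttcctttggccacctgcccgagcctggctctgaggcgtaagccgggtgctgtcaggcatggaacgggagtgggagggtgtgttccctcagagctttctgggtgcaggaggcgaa
Krt4 -452, chr15:101755468-101755767: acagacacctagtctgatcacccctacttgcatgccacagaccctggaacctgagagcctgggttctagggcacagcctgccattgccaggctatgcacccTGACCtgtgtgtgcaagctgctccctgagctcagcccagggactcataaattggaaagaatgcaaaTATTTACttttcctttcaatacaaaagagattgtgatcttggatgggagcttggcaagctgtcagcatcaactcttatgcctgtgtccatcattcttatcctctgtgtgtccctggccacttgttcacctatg
5430421N21Rik -15694, chr15:101337487-101337786: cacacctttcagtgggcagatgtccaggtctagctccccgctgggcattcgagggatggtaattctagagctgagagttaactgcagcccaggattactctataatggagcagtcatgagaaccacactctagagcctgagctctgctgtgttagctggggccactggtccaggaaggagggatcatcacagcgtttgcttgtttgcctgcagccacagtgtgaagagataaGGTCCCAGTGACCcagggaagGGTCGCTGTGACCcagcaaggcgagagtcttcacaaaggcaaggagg
Krt78 -22217, chr15:101806785-101807084: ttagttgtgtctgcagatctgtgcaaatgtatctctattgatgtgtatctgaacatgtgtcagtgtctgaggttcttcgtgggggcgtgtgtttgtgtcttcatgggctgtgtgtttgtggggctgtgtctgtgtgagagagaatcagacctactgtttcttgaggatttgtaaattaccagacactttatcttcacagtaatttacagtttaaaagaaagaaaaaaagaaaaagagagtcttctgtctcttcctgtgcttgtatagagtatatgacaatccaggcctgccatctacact

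The regions differed in what the capitals mark. The 5430421N21Rik -15694 sequence held 2 EREs with 1 mismatch each. Krt4 -2742 held no ERE and only 2 ERE arms, Krt4 -452 held 1 ERE arm and the FOXA1 match TATTTAC, and the Krt78 -22217 sequence held none of the searched motifs.

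Krt4 (ENSMUSG00000059668.5, chr15:101748967-101755166, minus strand) had the closest and, within 10 kb, the strongest ERα binding of the 10 keratins. Peak scores are −log10 p-values against input multiplied by 10, and the authors' cutoff of 1e-08 corresponds to a score of 80. Krt4 -2742 (chr15:101757300-101758515) scored 2690.25 in replicate 1 and 2163.99 in replicate 2, ranks 32 and 36 of the lists, and it lay between the 5′ end of Krt4 and the 3′ end of Krt79. By the lower of its scores it was in the top 0.56% of shared regions. Krt4 -452 (chr15:101755305-101755930) scored 276.29 and 154.4, ranks 2782 and 3550. It was the only one of the 18 regions that was proximal to its nearest gene, meaning from 1 kb upstream to 400 bp downstream of the TSS. Both replicates thus had a peak just upstream of the Krt4 start, not covering it, and a far higher one less than 3 kb upstream. The score of Krt4 -452 was above the median of all peaks in replicate 1 (162) and below it in replicate 2 (161). Requiring a score of 200 in both lists removes this region.

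Krt79 (chr15:101759763-101770755, minus strand) is the next gene upstream of Krt4, and its own region, Krt79 -2011 (chr15:101772601-101772930), was weak, with scores of 109.55 and 85.82. The same region lay 17600 bp upstream of Krt4. Krt78 -22217 (chr15:101806327-101807542) scored 1585.08 and 876.34, ranks 212 and 405, which put it in the top 6.43% of shared regions by its lower score. Its nearest gene, Krt78, is a type II keratin outside the list, and it lay 51769 bp upstream of Krt4, 36180 bp upstream of Krt79, 27838 bp downstream of the Krt8 start and 51712 bp upstream of Krt18. These 4 regions made up all the shared binding within 100 kb of Krt4, and the same 4 were all the shared binding within 100 kb of Krt79.

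Replicate 1 had 2 peaks near Krt4 with no partner in replicate 2. One (chr15:101759538-101760233, score 185.37) lay in an exon of Krt79 and 4720 bp upstream of the Krt4 TSS. The other (chr15:101662466-101662795, score 91.45) lay 92535 bp downstream of the Krt4 TSS and was nearest to Krt2. Krt4 therefore had 6 peaks in replicate 1 and 4 in replicate 2, and no replicate 2 peak near any of the 10 genes lacked a partner. Over the whole lists, 3370 of 9607 replicate 1 peaks and 638 of 6819 replicate 2 peaks lacked a partner.

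**Figure D1:**
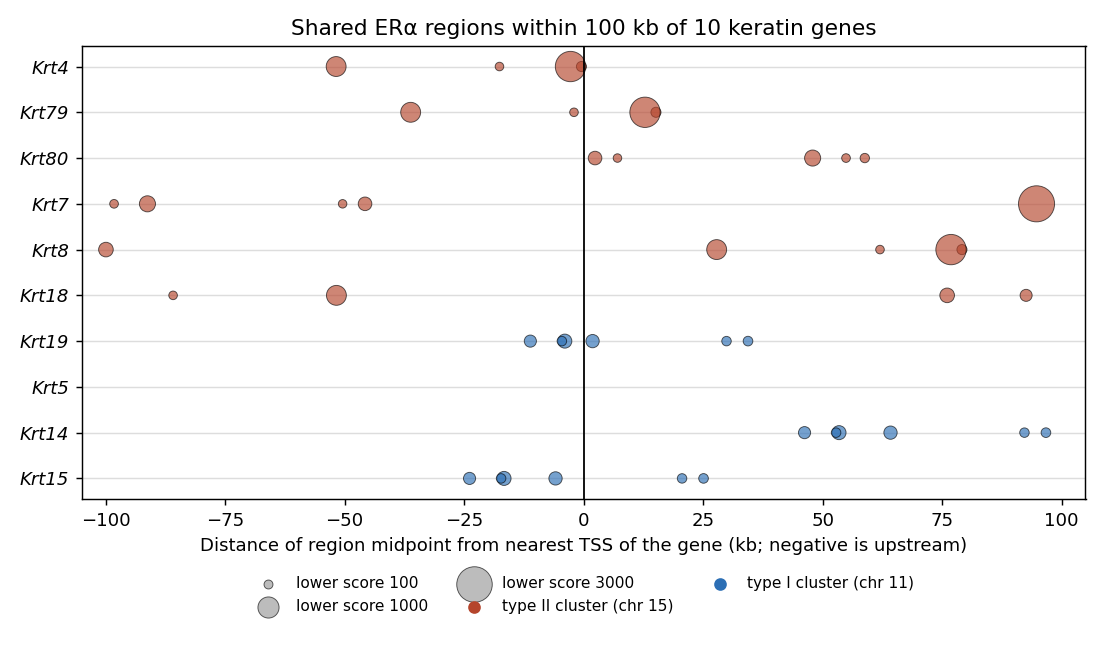
Each row is a keratin gene and each point a shared ERα region within 100 kb, placed by the distance in kb of its midpoint from the nearest TSS of the gene (negative is upstream) and sized by the lower of its scores in the 2 replicates. Colours separate chromosomes 15 and 11, a region near several genes appears in each of their rows, and the Krt5 row is empty. The large point next to the Krt4 start is the region at -2742 bp, while the nearest points to the luminal genes Krt7, Krt8 and Krt18 stand 45725, 27838 and 51712 bp away. The nearest point to Krt19, also a luminal marker, stands 1877 bp away.

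The study lists Krt4 among its estradiol-induced genes and the luminal keratins Krt7, Krt8 and Krt18 among its repressed ones, and the question here was how binding near the induced gene compares with binding near the repressed ones. Within 100 kb the numbers were alike: 4 shared regions for Krt4, 5 for Krt7, 5 for Krt8 and 4 for Krt18. Over all 22380 protein-coding genes of the annotation, 38.1% had at least 1 shared region within 100 kb, 4.71% had 4 or more and 2.47% had 5 or more. Single lists gave the same order of magnitude, with 6, 5, 6 and 5 replicate 1 peaks near Krt4, Krt7, Krt8 and Krt18, and 4, 5, 5 and 4 replicate 2 peaks. In these lists 49.6% of protein-coding genes had a replicate 1 peak and 40.2% a replicate 2 peak within 100 kb.

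At short distances the counts differed. Krt4 had 2 shared regions within 10 kb and 3 within 25 kb. Krt7, Krt8 and Krt18 had 0 at both distances, as did most genes, since 8.09% of protein-coding genes had a shared region within 10 kb and 14.9% within 25 kb. This does not hold for all luminal keratins of the list. Krt19, a luminal marker outside this comparison, had 3 within 10 kb and 4 within 25 kb, more than Krt4. Within 50 kb Krt4 had 3, Krt7 and Krt8 had 1 each and Krt18 had 0, against 24.5% of protein-coding genes with at least 1. Within 200 kb the order turned, with 6 for Krt4, 10 for Krt7 and 9 each for Krt8 and Krt18. Among all protein-coding genes, 1.54% had 2 or more shared regions within 10 kb, 1.58% had a proximal one, and 9 genes (0.0402%), Krt4 included, had a region within 10 kb whose lower score was as high as that of Krt4 -2742.

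**Figure D2:**
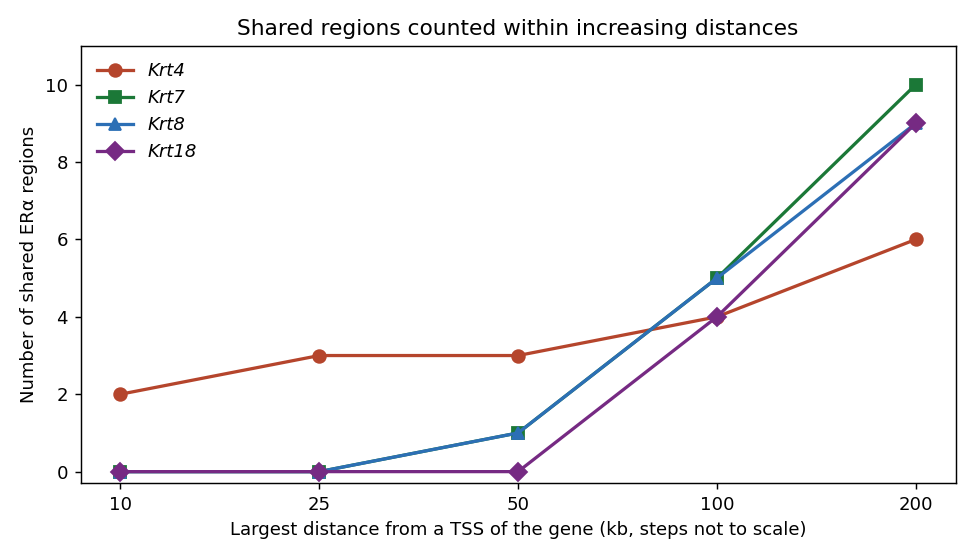
The number of shared ERα regions (vertical axis) is plotted against the largest allowed distance in kb from a TSS (horizontal axis, steps not to scale) for Krt4, Krt7, Krt8 and Krt18. Krt4 is the only line above 0 at 10 and 25 kb, the lines meet at 4 or 5 regions at 100 kb, and Krt4 is lowest at 200 kb. Krt19, also a luminal marker, is not drawn and had 3 regions within 10 kb.

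The nearest-gene assignment, which rests on the same distances and is not separate evidence, gave the same contrast. Krt4 was the nearest gene to 2 regions, whereas Krt7, Krt8 and Krt18 were nearest to 0, and 11.8% of protein-coding genes were nearest to at least 1 shared region and 3.55% to 2 or more. The luminal marker Krt19, outside this comparison, was nearest to 4. Krt80, also outside it, matched Krt4, with 2 regions within 10 kb and 2 to which it was nearest. The counts at 100 kb were also not independent between genes: all 4 Krt4 regions lay within 100 kb of Krt8 as well, 2 lay within 100 kb of Krt18 and 0 within 100 kb of Krt7. Krt8 and Krt18, whose proteins pair with each other, shared 3 regions.

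The 5 regions near Krt8 (chr15:101827142-101834773, minus strand) were the 2 nearest to Krt4, at 76865 and 79155 bp downstream of its TSS, Krt79 -2011 at 62007 bp, Krt78 -22217 at 27838 bp, and a region in an intron of Tenc1 at 99930 bp upstream. The last of these was only just inside the 100 kb limit. It is Tenc1 +1284 (chr15:101934326-101935079), with scores of 432.86 and 430.05. Krt18 (chr15:101858647-101862457, plus strand) had Tenc1 +1284 at 76056 bp downstream and, at 92577 bp, a region in an intron of Spryd3 (Spryd3 +8091, chr15:101950816-101951631) with scores of 396.61 and 260.01. Its other 2 were Krt78 -22217 and Krt79 -2011. No shared region thus had Krt8 or Krt18 as its nearest gene, and every region near them lay closer to the TSS of another gene.

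Krt7 (chr15:101241474-101260744, plus strand) lies toward the other end of the cluster. Its highest-scoring neighbour was 5430421N21Rik -15694 (chr15:101337088-101338186), at 94757 bp downstream of the Krt7 TSS and near no other of the 10 genes, with a score of 3100 in both replicates. That value was tied among 17 peaks of replicate 1 and 8 of replicate 2, and 8 shared regions reached it in both lists, so it does not rank them. The annotation gives the nearest gene only this clone-based symbol, which RefSeq lists as a synonym of both Krt83 and Krt86, so it may itself be a keratin gene. The keratins annotated as Krt83, Krt81 and Krt86 on one side and Krt84, Krt82 and Krt75 on the other also lay within 100 kb. The other 4 regions near Krt7, from 45725 to 98231 bp upstream, were all near Krt80 too.

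Krt80 (chr15:101177875-101200556, minus strand), a type II keratin with a broad epithelial distribution, had 5 regions, all downstream of its TSS. With all annotated starts, the nearest gene was Krt80 itself for 2 of them, both in its introns. Their distances are from the inner of its 2 annotated starts. From the most upstream start they are 4807 and 9497 bp, and the assignment to Krt80 depends on the start used. Krt80 +2395 (chr15:101195351-101196146) scored 597.41 and 359.03, and Krt80 +7085 (chr15:101190889-101191228) scored 105.89 and 82.54, the latter just above the cutoff in replicate 2. The other 3 were nearest to 6030408B16Rik, at +15675 (scores 120.01 and 119.16), +19600 (89.93 and 101.79) and +26585 (633.26 and 539.7). The strongest of these, 6030408B16Rik +26585 (chr15:101149890-101150565), lay 47916 bp from the Krt80 TSS and ranked 1096 and 887 in the lists. Around Krt80 there were thus 2 regions with scores above the median of all peaks (162 in replicate 1, 161 in replicate 2) and 3 with scores below it in both replicates.

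Krt5 (chr15:101537501-101543322, minus strand), the type II basal keratin, was the only one of the 10 genes with no peak of either replicate within 100 kb. It also had 0 shared regions within 200 kb. The closest was 5430421N21Rik -15694, at 205685 bp. Among protein-coding genes 61.9% had 0 shared regions within 100 kb and 44.0% had 0 within 200 kb, so this was the commoner state of a gene in these lists. Krt5 lies in a stretch of 418.0 kb between the midpoints of adjacent shared regions, which holds the starts of 17 protein-coding genes, 15 of them keratins. The stretch ends at Krt4 -452, so the Krt4 start lies just inside it, 452 bp from that midpoint. It also holds the replicate 1 peak without a partner that was nearest to Krt2. Over the genome 22.5% of 6223 gaps between neighbouring regions were at least as wide.

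On chromosome 11, the 6 regions lay within 100 kb of all 3 listed genes, so Krt14, Krt15 and Krt19 each had 6, and 1.37% of protein-coding genes had 6 or more. The genes differed in distance. Krt19 (chr11:100002124-100009979, minus strand), a type I keratin of simple epithelia, was nearest to 4 of the 6, and 0.554% of protein-coding genes were nearest to 4 or more. It had 3 regions within 10 kb, and 0.474% of protein-coding genes had 3 or more. Both Krt19 counts include 2 regions that come from 1 wide peak of replicate 1. In replicate 1 alone Krt19 was nearest to 3 peaks. The share of protein-coding genes with 2 or more shared regions within 10 kb was 1.54%. Krt15 (chr11:99993072-99997263) had 1 within 10 kb, 5873 bp upstream of its TSS, and Krt14 (chr11:100064476-100068862), the basal partner of Krt5, had none closer than 46223 bp. Neither was the nearest gene to any region when all annotated starts were used.

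Krt19 -3929 (chr11:100013505-100014311) had the highest scores of the chromosome 11 set, 883.64 and 388.55. Krt19 -4546 (chr11:100014321-100014729) scored 883.64 and 127.21, and its replicate 1 value is the same peak, since a single wide peak of replicate 1 overlapped 2 separate peaks of replicate 2. Krt19 +1877 (chr11:100002858-100003413), in an intron of the gene, scored 366.58 and 338.42. Krt19 -11142 (chr11:100020834-100021407) scored 296.7 and 266.42. Distances around Krt19 depend on which of its 3 annotated starts is used, and the intronic region lies 4298 bp downstream of the start at chr11:100007434 and 6843 bp downstream of the most upstream one. The most upstream start of Krt15 is 5873 bp from this region, so by those starts it lies closer to Krt15 than to Krt19. With only the most upstream start of each gene, 7 instead of 9 regions were nearest to a listed keratin. A move from Krt19 to Krt15 leaves that count unchanged, since both genes are listed. The Krt80 regions are the only others of the 9 measured from an inner start, so the drop involves Krt80.

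The last 2 chromosome 11 regions were nearest to the processed transcript Gm12347. Gm12347 +2800 (chr11:99970374-99970866) scored 133.02 and 168.97, and its nearest protein-coding gene was Krt36 at 3680 bp. Gm12347 -1695 (chr11:99974897-99975333) scored 170.63 and 125.63 and lay 5033 bp downstream of the TSS of Krt13, the known partner of Krt4. Each was above the median of all peaks (162 in replicate 1, 161 in replicate 2) in 1 list only. Neither had a score of 200 in either list.

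**Figure D3:**
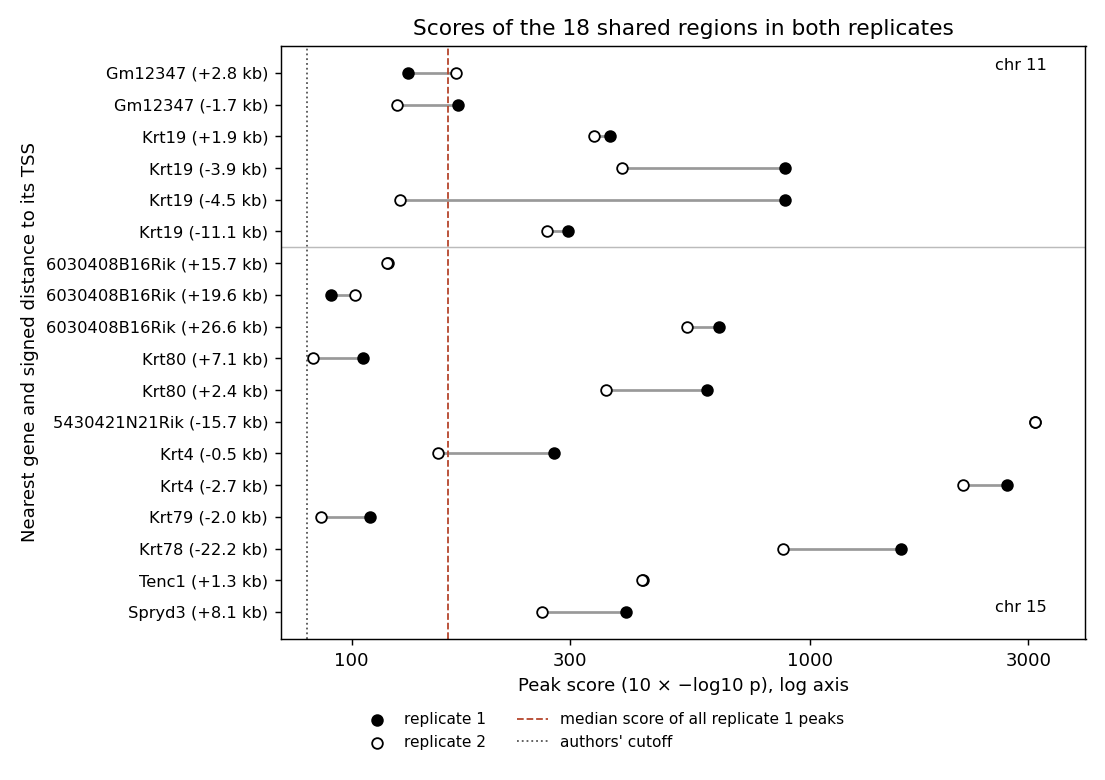
Each row is 1 of the 18 shared regions in genomic order, named by its nearest gene and distance in kb, with its peak score in replicate 1 (filled) and replicate 2 (open) on a log axis. The dashed line is the median score of all replicate 1 peaks (162) and the dotted line the authors' cutoff (80). The regions at 5430421N21Rik, Krt4 (-2742 bp) and Krt78 reach the highest scores in both replicates, and Krt19 -4546 has the widest gap between replicates.

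The 2 replicates ranked these regions alike. Spearman's rho of the scores was 0.884 over the 18 regions, which share 1 peak of replicate 1, and 0.839 over all shared regions. Replicate 1 had the higher score in 15 of 18, as in 80.2% of all shared regions. The ratio of replicate 1 to replicate 2 had a median of 1.26 and ranged from 0.787 to 6.95, the highest being Krt19 -4546, and the median over all shared regions was 1.31. On chromosome 15 it stayed between 0.883 and 1.81. The median of the lower score was 310 over the 12 regions of chromosome 15, 200 over the 6 of chromosome 11 and 168 over all shared regions, and 7, 3 and 2604 of them reached a score of 200 in both lists. By the lower score 3 of the 18 were in the top 10% of shared regions and 2 in the top 5%, all on chromosome 15.

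Of the 18 regions 13 were intergenic, 5 lay in introns and 0 in exons of protein-coding genes. Relative to the nearest gene 8 were distal upstream, 9 distal downstream and 1 proximal. The proximal share was 7.32% of all shared regions within 100 kb of a TSS. The other location counts are given without such a share. A listed keratin was the nearest gene for 9 of them, 5 on chromosome 15 and 4 on chromosome 11. Keratin clusters are gene-dense, and a region of the set had between 5 and 12 protein-coding genes with a TSS within 100 kb, with a median of 8, against a median of 2 over all shared regions. A high count within 100 kb of a keratin is therefore shared among many genes, and the part of gene density in the counts was not tested. The median width was 640.5 bp against 559 bp over all shared regions.

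**Figure D4:**
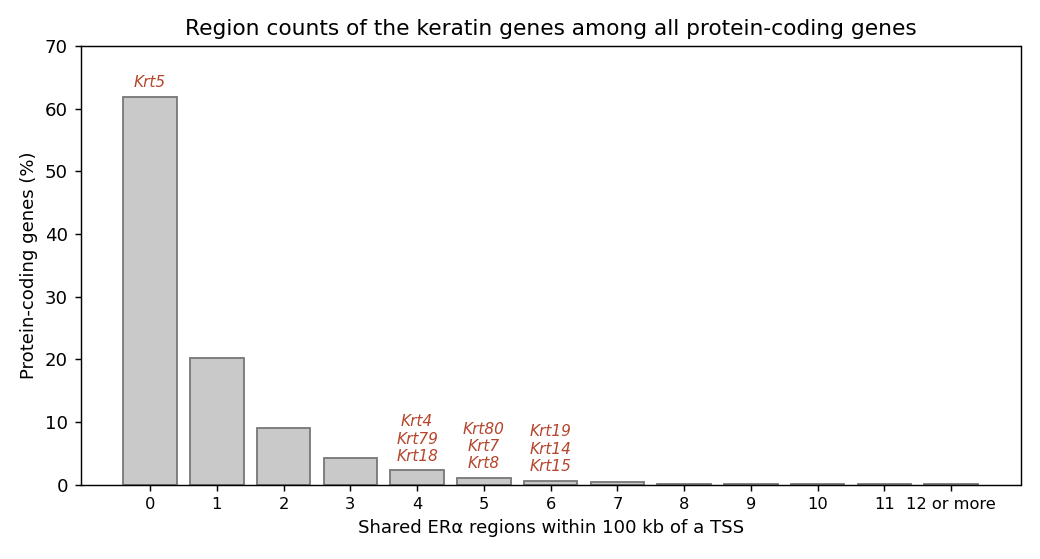
Bars give the percent of protein-coding genes (vertical axis) with each number of shared ERα regions within 100 kb of a TSS (horizontal axis), and the 10 keratins are written above the bar of their own count. Krt5 stands at 0 with 61.9% of genes, and the other 9 stand at 4, 5 or 6.

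The limit of 100 kb left out regions on both sides. The nearest excluded one (chr15:101090666-101091311, scores 266.76 and 150.63) lay 107155 bp from Krt80 and was nearest to Nr4a1. Farther out, a region with scores of 998.69 and 793.78 lay 158245 bp downstream of the Krt18 TSS and was nearest to Csad, and one with scores of 1020.82 and 813.86 lay 187647 bp upstream of the Krt14 TSS and was nearest to Jup, which encodes the junction protein plakoglobin.

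The other keratin genes of both chromosomes were taken from the annotation as a list. They were found by the symbol Krt, so 5430421N21Rik, nearest to the region with a score of 3100, was not counted among them. Of 17 on chromosome 15, 10 had a shared region within 100 kb, 0 had one within 10 kb and only Krt78 by this count was nearest to a region. Of 24 on chromosome 11, 15 had a shared region within 100 kb and 3 within 10 kb (Krt23, Krt36 and Krt13), and only Krt23 was nearest to a region when all annotated genes were considered. Of the 10 listed genes, 9 had a shared region within 100 kb, and 5 (Krt4, Krt79, Krt80, Krt15 and Krt19) had one within 10 kb. Over all protein-coding genes these shares were 38.1% and 8.09%, and neighbouring keratins count the same regions, so the genes are not independent of each other.

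How many keratin regions held an ERE-like sequence depended on the mismatches allowed, and no difference from all shared regions was tested. In 400 bp windows around the midpoints, 3 of 18 held an ERE with at most 1 mismatch, against 31.1% of all 6243 shared regions on assembled chromosomes and 1.11% of windows 5 kb to each side. All 3 were on chromosome 15. Only 6030408B16Rik +26585 had both arms intact, as 6.6% of all shared regions did. The ERE-like sequence in each is shown here in capitals with 24 bases to each side, on the plus strand.
6030408B16Rik +26585, 0 mismatches, chr15:101150159-101150219: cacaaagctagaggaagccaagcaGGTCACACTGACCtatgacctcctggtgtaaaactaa
Krt80 +2395, 1 mismatch, chr15:101195626-101195686: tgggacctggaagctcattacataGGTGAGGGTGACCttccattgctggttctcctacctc
5430421N21Rik -15694, 1 mismatch, chr15:101337695-101337755: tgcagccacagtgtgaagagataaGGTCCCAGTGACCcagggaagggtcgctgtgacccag
5430421N21Rik -15694, 1 mismatch, second match, chr15:101337716-101337776: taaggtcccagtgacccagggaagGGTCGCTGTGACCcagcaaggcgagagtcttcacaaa

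With at most 2 mismatches 11 of 18 regions had a match, against 67.4% of all shared regions and 15.5% of flanking windows. Among them were Krt19 -3929, the highest-scoring region of chromosome 11, and Krt19 +1877, Krt19 -4546, Krt80 +7085 and Krt79 -2011, which are nearest to a listed keratin. One match for each is shown in the same way, the one closest to the midpoint of the region.
Krt19 -3929, 2 mismatches, chr11:100013824-100013884: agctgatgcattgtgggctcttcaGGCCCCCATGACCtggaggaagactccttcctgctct
Krt19 +1877, 2 mismatches, chr11:100003109-100003169: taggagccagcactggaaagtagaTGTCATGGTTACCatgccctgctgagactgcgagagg
Krt19 -4546, 2 mismatches, chr11:100014505-100014565: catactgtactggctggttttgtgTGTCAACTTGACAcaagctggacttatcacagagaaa
Krt80 +7085, 2 mismatches, chr15:101190994-101191054: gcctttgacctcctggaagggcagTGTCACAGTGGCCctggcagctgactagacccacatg
Krt79 -2011, 2 mismatches, chr15:101772766-101772826: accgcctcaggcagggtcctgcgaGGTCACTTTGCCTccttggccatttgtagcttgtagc

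The regions nearest to Krt4 were not among them. In the 400 bp windows of Krt4 -2742 and Krt4 -452 the best match had 3 mismatches, and the same was true of the whole regions. Krt19 -11142 also had 3 at best. The window of Krt78 -22217 had 4 at best and no ERE arm, although the whole region, which is 1216 bp wide, held 3 arms. One arm or more was present in 16 of 18 windows, the same share (88.9%) as in all shared regions and more than the 50.6% of flanking windows.

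Matches to other consensus motifs, searched on both strands, were scattered. AP1 (TGACTCA) was in 4 windows, at Gm12347 -1695, Krt19 -4546, Krt80 +7085 and 5430421N21Rik -15694, against 16.7% of all shared regions. FOXA1 (TGTTTAC or TATTTAC) was in 4, at Krt19 -11142, 6030408B16Rik +26585, Krt4 -452 and Krt79 -2011, against 14.0%. The window of Krt79 -2011 is wider than the region itself (330 bp), and its FOXA1 match lies outside the region. PAX2 (GTCACG) was in 1, at 5430421N21Rik -15694, against 9.16%. SF1 (CAAGGTCA, which contains the ERE arm) was in 0, against 9.35%. Flanking windows held them in 7.1%, 10.7%, 3.94% and 3.02%, in the same order.

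Beyond the 400 bp windows the Krt4 regions held 3 further matches. Krt4 -2742, in which 7 ERE arms were spread over its 1216 bp, had an SF1 match and an AP1 match toward its ends, and Krt4 -452 had an AP1 match. The 3 matches of the Krt4 regions are shown with 12 bases to each side, in capitals on the plus strand. A match on the minus strand reads as its reverse complement.
Krt4 -2742, SF1 on the minus strand, chr15:101757507-101757538: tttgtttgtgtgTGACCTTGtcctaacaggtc
Krt4 -2742, AP1 on the minus strand, chr15:101758197-101758227: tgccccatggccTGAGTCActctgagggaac
Krt4 -452, AP1 on the plus strand, chr15:101755391-101755421: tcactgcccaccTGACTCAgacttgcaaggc

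Promoter sequences of RefSeq (GRCm38.p6 table, from 250 bases before to 50 after the start) were matched by symbol for 6 of the 10 genes, Krt5, Krt7, Krt8, Krt14, Krt18 and Krt79, and each occurred once in NCBIM37. No shared region overlapped any of the 6, and none held a match to the 5 motifs, the ERE being searched with up to 2 mismatches. Of the 32851 promoters listed, 0.877% held an ERE with at most 1 mismatch, 11.1% one with at most 2, 5.2% AP1, 1.56% SF1, 8.22% PAX2 and 6.54% FOXA1. A match or its absence describes these letters only and says nothing of a factor being bound.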

How the data were processed

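ERα ChIP-seq was made on 2 pools of mammary glands with the antibody sc-542. Single-end reads of 51 nt were placed on mm9 by the authors using BWA, and MACS was run on each replicate against 1 input with a p-value cutoff of 1e-08. The MACS version is not given in the sources used here. The deposited score of a peak is its −log10 p-value multiplied by 10. The lists hold no read depth. The expression data of the study were not analysed here.

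Peaks overlapping by at least 1 bp were called shared, and the overlap was taken as the region. Each overlapping pair made 1 region, so a peak that overlapped 2 peaks of the other list made 2. The 6250 regions are slightly more than the common sites that the paper reports. Midpoints were placed against every annotated TSS of GENCODE version 1 for mouse (Ensembl 65, NCBIM37), with 22380 protein-coding genes. For regions wider than the motif window, the midpoint need not be the summit. Motifs were searched as consensus letters, the ERE with at most 1 mismatch over its 10 fixed bases. Named are the 10 keratins, the gene nearest to each region, and other keratins only where a region is nearest, plus a few neighbours (Krt2, Krt36, Krt13, Krt83, Krt81, Krt86, Krt84, Krt82, Krt75, Nr4a1, Csad and Jup) that were added after the values were seen. The members and lists were chosen with earlier results of these data known. No test was made. Alternatives were scores of 100 and 200, other overlap rules, each replicate alone, other TSS sets, 50 and 200 kb, and other motif settings. Overlap, TSS assignment and motif search were tested on simulated data. Python 3.11.15, numpy 2.4.6, scipy 1.17.1 and matplotlib 3.10.9 were used.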

Additional observations from a re-analysis of the deposited data

How the results depend on the processing

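Of 55 alternatives 41 stayed within 1.5 times the reported value and 14 did not. A score of at least 200 in both lists left 7 of 12 regions on chromosome 15, 3 of 6 on chromosome 11, 2 of 4 near Krt4, a median of 3 instead of 5 near Krt7, Krt8 and Krt18, and 5 of 9 regions nearest to a listed keratin. A score of at least 100 also gave that median as 3. Within 50 kb the chromosome 15 count was 7 and the luminal median 1, and within 200 kb they were 20 and 9. Requiring midpoints within 100 bp left 3 regions on chromosome 11. The ERE count of 3 became 1 with no mismatch, 11 with up to 2, and 16 for GGTCA alone on either strand, a setting chosen after seeing the data. With 1 replicate alone, Krt4 had 4 to 6 peaks, the luminal median was 5, and the chromosome counts were 12 to 14 and 5 to 6. A single condition and 2 replicates give no estimate of spread between animals, and binding to a region does not say which gene it serves.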
